A study of Mus musculus with 6 samples.

Results

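Polyamine metabolism was followed through 8 named genes: the synthesis enzymes Odc1, Amd1, Srm and Sms, the catabolic enzyme Sat1, the antizymes Oaz1 and Oaz2, and the antizyme inhibitor Azin1. A gene was taken where its symbol stood in both deposited tables, with Amd1 taken from the only entry that contains its symbol, labelled "Amd1,Amd2". This found 7 of the 8 genes among the 23235 genes of the tables. Oaz2 has no entry under its own symbol, and an entry named Oaz2-ps, an older symbol of Oaz2 in RefSeq, is given beside the 7. The genes were chosen for their values in these comparisons, so their levels and calls below are a description and not a test.

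The study asked how the transcription factor Sp3 and the histone deacetylase HDAC2 act together on synaptic genes in neurons. RNA was sequenced from primary cortical and hippocampal neurons of mouse embryos at day 15, kept in culture for 17 days. Cultures received 1 uM of AraC, which removes dividing cells, on day 5, and lentivirus carrying short hairpin RNAs on day 12. The 3 groups of 2 libraries each were HDAC2 knockdown, Sp3 knockdown and control, and all of them, the control included, had the AraC and the virus step; what the control virus carried is not described beyond the word control. Whether both libraries of a group stem from different cultures is not stated in the labels, so the authors' p-values may measure technical spread only.

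Polyamines are small, positively charged molecules (putrescine, spermidine and spermine) that bind nucleic acids and, in neurons, modulate ion channels including glutamate receptors. Ornithine decarboxylase (Odc1) makes putrescine, and S-adenosylmethionine decarboxylase (Amd1) makes the aminopropyl donor with which spermidine synthase (Srm) and spermine synthase (Sms) build the longer polyamines. Spermidine/spermine acetyltransferase (Sat1) marks polyamines for breakdown or export, antizymes bind ornithine decarboxylase and send it to the proteasome, and antizyme inhibitor (Azin1), a relative of the decarboxylase without its activity, binds antizyme in its place.

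The authors deposited 1 FPKM value (fragments scaled to transcript length and to the mapped total) per group, so no level carries a standard deviation here, and the depth of the libraries is unknown. Errors are the standard error (SE) of a log2 fold change that follows from the authors' test statistic. A gene was called where the authors' deposited q-value was under 0.05. Each deposited q tests the fold change as deposited, also where a change relative to the median gene is printed beside it. The median gene with at least 1 FPKM was higher by 0.32 on the log2 scale in HDAC2 knockdown and lower in Sp3 knockdown (-0.13), each against control, so fold changes are given relative to that median ("centred") unless stated otherwise. In the authors' deposited tables the targets stood at 12.3 FPKM of Hdac2 in HDAC2 knockdown, 38.8 in Sp3 knockdown and 49.4 in control, and at 26.7 FPKM of Sp3 in HDAC2 knockdown, 5.82 in Sp3 knockdown and 15.5 in control. Each target was thus lowest in its own knockdown. Of the neuron markers, 10 of 10 were detected in every group.

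The entry that changed most was that of Amd1. In the authors' deposited tables the entry "Amd1,Amd2", at chr10:40007263-40021994 of mm9, stood at 0.993 FPKM in HDAC2 knockdown, 11.0 in Sp3 knockdown and 16.2 in control. HDAC2 knockdown was far below both other groups. The centred log2 fold change was -4.34 ± 0.57 (SE) in HDAC2 knockdown, with a q of 6.06e-11 in the authors' deposited table, and -0.42 ± 0.15 (SE) in Sp3 knockdown, with a deposited q of 0.00111 in the authors' table. As the HDAC2 knockdown level is near 1 FPKM, the uncentred change of -4.03 became -3.11 when a pseudocount of 1 FPKM was added to both groups. Of 13370 genes with at least 1 FPKM, 2 had a lower fold change in HDAC2 knockdown.

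A separate entry named Amd2 has exactly the same coordinates, and it was high where the first was low. It stood at 27.7 FPKM in HDAC2 knockdown, 12.02 in Sp3 knockdown and 10.5 in control in the authors' deposited tables. Its status there is "LOWDATA" in both comparisons, so it was not tested. Summed over both entries, the locus had 28.6 FPKM in HDAC2 knockdown, 23.1 in Sp3 knockdown and 26.7 in control, from the values in the authors' deposited tables. The sum therefore differed little between groups: its log2 fold change was 0.10 in HDAC2 knockdown, or -0.21 after centring, and -0.21 in Sp3 knockdown, or -0.08 after centring. What differed was the split. The "Amd1,Amd2" entry held 3.47% of the summed FPKM in HDAC2 knockdown, 47.9% in Sp3 knockdown and 60.6% in control.

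**Figure D1:**
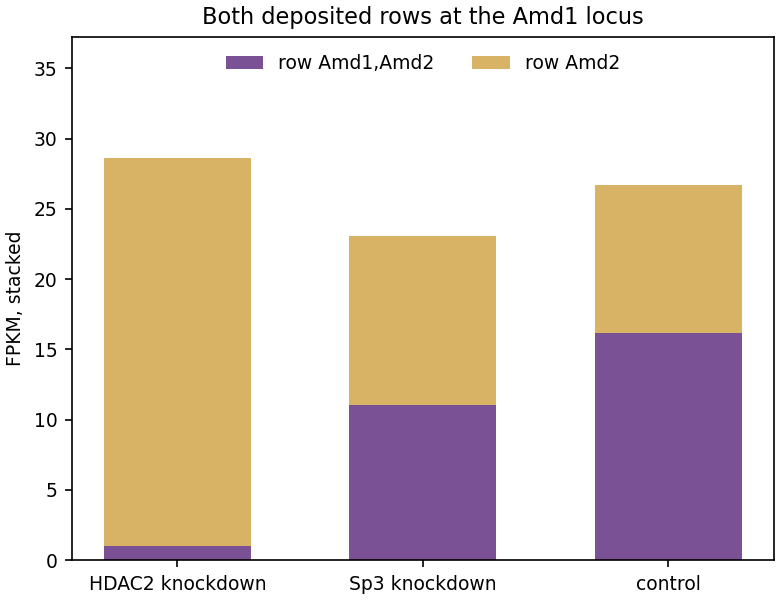
FPKM of the 2 deposited entries that share the Amd1 coordinates, stacked, for HDAC2 knockdown, Sp3 knockdown and control (1 value per group, so no error bars). The stacks reach 28.6, 23.1 and 26.7 FPKM, while the entry "Amd1,Amd2" makes up 0.993, 11.0 and 16.2 FPKM of them.

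The 2 genes are nearly one sequence. RefSeq places Amd2, which encodes the same kind of decarboxylase, on chromosome 10 as well but as a gene of its own, outside the Amd1 locus. The GENCODE transcripts Amd1-201 (3204 bases) and Amd2-201 (3218 bases) differ at 14 of 3204 aligned bases, an identity of 99.6%, and their reading frames of 1005 bases differ at 1. The stretch with that difference, bases 766 to 825 of the reading frame, is printed to show how alike the genes are, with the differing base in capitals.
Amd1: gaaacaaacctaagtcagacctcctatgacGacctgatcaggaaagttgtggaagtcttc
Amd2: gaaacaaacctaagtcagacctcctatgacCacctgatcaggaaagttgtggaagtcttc
Of all 50-base words of the Amd1 transcript, 87.6% also occur in other genes' transcripts, and 86.1% occur in Amd2. How the authors' counting divided such reads is not given in the sources used here, so the change of Amd1 itself cannot be told apart from a change in how reads were split between the entries.

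Among all genes, 4168 entries share their exact coordinates with another entry. Of 1900 such entries that were tested for HDAC2 knockdown and stood at 1 FPKM or more together with their partner in control, 33 changed at least 4-fold, and for 20 of the 33 the sum at the locus changed less than 2-fold. Sp3 knockdown gave 20 of 1936 such entries, and for 10 of the 20 the sum changed less than 2-fold. In both comparisons these entries include small RNAs, such as Snord68, so they do not count near-identical gene pairs alone. Among the other genes of the 7, only the Oaz1 locus overlaps further entries, Gm9786 and Mir1982.

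Odc1, the putrescine-forming enzyme, was highest in HDAC2 knockdown and lowest in Sp3 knockdown. It stood at 89.3 FPKM in HDAC2 knockdown, 43.8 in Sp3 knockdown and 58.5 in control in the authors' deposited tables. Its centred log2 fold change was 0.29 ± 0.29 (SE) in HDAC2 knockdown, where the authors' deposited q was 0.0943, and -0.29 ± 0.12 (SE) in Sp3 knockdown, where the authors' deposited q was 0.00244. The HDAC2 value is about the size of its SE and was not called, and the Sp3 value was called lower.

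The synthases for the longer polyamines differed from each other. Srm stood at 35.5 FPKM in HDAC2 knockdown, 19.5 in Sp3 knockdown and 36.9 in control in the authors' deposited tables, so that Sp3 knockdown alone was low. Its centred log2 fold change was -0.79 ± 0.12 (SE) in Sp3 knockdown, with a q of 8.91e-13 in the authors' deposited table, and -0.37 ± 0.24 (SE) in HDAC2 knockdown, with a q of 0.877. Sms stood at 42.5 FPKM in HDAC2 knockdown, 27.4 in Sp3 knockdown and 25.8 in control in the same authors' deposited tables. The authors called Sms higher in HDAC2 knockdown, with a deposited q of 0.02 in their table, but its centred log2 fold change of 0.40 ± 0.26 (SE) was not called (adjusted p = 0.315, normal deviate with Benjamini-Hochberg adjustment). In Sp3 knockdown its centred change was 0.22 ± 0.10 (SE), with a q of 0.552 in the authors' deposited table. The ratio of Srm to Sms was 0.835 in HDAC2 knockdown, 0.712 in Sp3 knockdown and 1.43 in control, a description of FPKM in the authors' deposited tables.

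Sat1, the acetyltransferase of the catabolic branch, had the largest fall of the 7 in Sp3 knockdown. It stood at 24.6 FPKM in HDAC2 knockdown, 7.59 in Sp3 knockdown and 32.1 in control in the authors' deposited tables. Sp3 knockdown was far below the other groups, which lay closer together. The centred log2 fold change was -1.95 ± 0.16 (SE) in Sp3 knockdown, with a q listed as 0 in the authors' deposited table, and 81 of 13268 genes with at least 1 FPKM had a lower one. In HDAC2 knockdown it was -0.70 ± 0.24 (SE), not called with a q of 0.219 in the authors' deposited table but called lower once centred (adjusted p = 0.0262, normal deviate with Benjamini-Hochberg adjustment). The ratio of Odc1 to Sat1, the first enzyme of synthesis to that of breakdown, was 3.64 in HDAC2 knockdown, 5.76 in Sp3 knockdown and 1.82 in control, from FPKM in the authors' deposited tables.

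Of the regulators of ornithine decarboxylase, the antizyme Oaz1 had the highest level of the 7 genes in all 3 groups. It stood at 139 FPKM in HDAC2 knockdown, 95.8 in Sp3 knockdown and 130 in control in the authors' deposited tables. Its deposited log2 fold change in HDAC2 knockdown was 0.10 (q 0.816 in the authors' deposited table) and turned to -0.22 ± 0.28 (SE) after centring. In Sp3 knockdown the centred change was -0.30 ± 0.12 (SE), called lower with a q of 0.0019 in the authors' deposited table. The inhibitor Azin1 stood at 97.3 FPKM in HDAC2 knockdown, 51.8 in Sp3 knockdown and 58.5 in control in the authors' deposited tables. Neither Azin1 change was called, at 0.42 ± 0.34 (SE, deposited q 0.0826 in the authors' table) in HDAC2 knockdown and -0.04 ± 0.12 (SE, deposited q 0.258 in the authors' table) in Sp3 knockdown, both centred. The ratio of Azin1 to Oaz1 was 0.701 in HDAC2 knockdown, 0.541 in Sp3 knockdown and 0.451 in control, from FPKM in the authors' deposited tables. Oaz2-ps, whose chromosome (chr9) and span of 13753 bases equal those of Oaz2 in RefSeq, stood at 62.1 FPKM in HDAC2 knockdown, 52.9 in Sp3 knockdown and 56.5 in control in the authors' deposited tables. It was called in neither comparison, with deposited q-values of 0.724 for HDAC2 and 0.534 for Sp3 in the authors' tables.

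**Figure D2:**
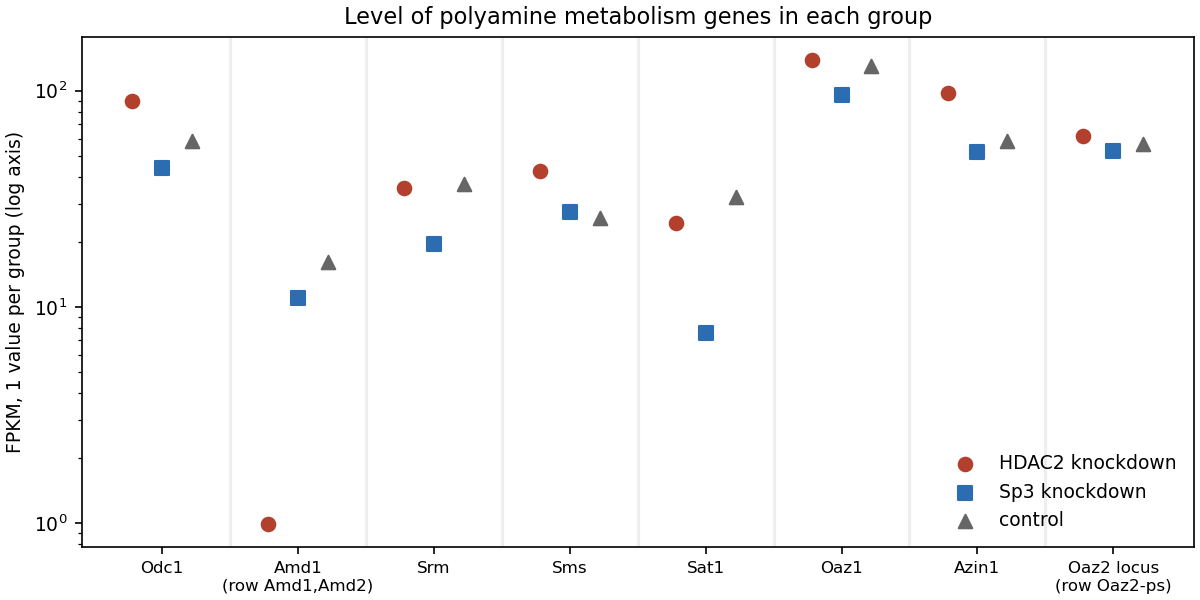
FPKM per group on a log axis for the 7 genes and the Oaz2-ps entry, with 1 value per group and so no error. Amd1 in HDAC2 knockdown (0.993 FPKM) lies apart from all other points, and Sat1 in Sp3 knockdown (7.59 FPKM) is the lowest of the rest.

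Levels per transcript length can be set side by side. Oaz1 held 32.4% of the summed FPKM of the 7 genes in HDAC2 knockdown, 37.3% in Sp3 knockdown and 36.3% in control, and the sums were 429, 257 and 358 FPKM from the authors' deposited tables. Azin1 and Odc1 came next in each group, in that order in HDAC2 knockdown and Sp3 knockdown, while in control Odc1 and Azin1 were both listed near 58.5 FPKM in the authors' deposited tables. Amd1, by its "Amd1,Amd2" entry alone, was the lowest of the 7 in HDAC2 knockdown and control, and Sat1 was the lowest in Sp3 knockdown. Summed with the Amd2 entry, the Amd1 locus was not lowest. It had 28.6 FPKM in HDAC2 knockdown, above Sat1 (24.6), and 26.7 in control, above Sms (25.8), from the authors' deposited tables. With 1 value per group, the spread behind this order is not known. The sums of the 7 genes also carry the shift of the median gene. Divided by the median fold, they came to 345 FPKM in HDAC2 knockdown and 282 in Sp3 knockdown, each below the 358 of control.

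Transcript sequences of other genes also share words with these genes. Words of 50 bases that recur in other genes made up 52.2% of Oaz1, 42.2% of Odc1, 28.7% of Sms, 11.98% of Oaz2, 7.28% of Sat1, 6.43% of Azin1 and 2.40% of Srm. The FPKM of Srm, Azin1 and Sat1 therefore rests on sequence that is mostly their own, and that of Oaz1 and Odc1 less so.

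Markers of glia moved with these groups. Summed over 8 astrocyte markers, FPKM in the authors' deposited tables came to 1687 in HDAC2 knockdown, 495 in Sp3 knockdown and 574 in control, with 5 of 8 called higher in HDAC2 knockdown and 4 of 8 called lower in Sp3 knockdown. After centring 5 were higher and 0 lower in HDAC2 knockdown, and 2 were higher (Aqp4 and Aldh1l1) and 4 lower in Sp3 knockdown. Slc1a3, Aldoc and Slc1a2, the highest of the astrocyte markers in HDAC2 knockdown at 721, 297 and 290 FPKM, were not called there. The sum over 10 oligodendrocyte lineage markers was 399 FPKM in HDAC2 knockdown, 130 in Sp3 knockdown and 225 in control in the authors' deposited tables, with 7 of 10 called higher in HDAC2 knockdown and 7 of 9 called lower in Sp3 knockdown, and 6 higher and 7 lower after centring. The 10 neuron markers summed to 1329 FPKM in HDAC2 knockdown, 1554 in Sp3 knockdown and 1263 in control in the authors' deposited tables. Of these, 0 were called in HDAC2 knockdown by the authors' deposited table and 1 was lower after centring, while in Sp3 knockdown 4 were called higher and 2 lower, and after centring 4 higher and 0 lower, with a median centred change of 0.47. Over all genes tested, 24.6% were called higher and 3.6% lower in HDAC2 knockdown, and 13.2% higher and 26.1% lower in Sp3 knockdown, by the authors' tables as deposited. After centring these shares were 10.2% higher and 7.59% lower in HDAC2 knockdown, and 20.2% higher and 17.6% lower in Sp3 knockdown. The 7 microglia markers summed to 1.45, 1.36 and 1.70 FPKM in HDAC2 knockdown, Sp3 knockdown and control in the authors' deposited tables, none reaching 1 FPKM and Tyrobp at 0 in every group, and the 6 endothelial and mural markers summed to 3.99, 1.94 and 2.34 FPKM there. In RNA from whole cultures, fewer cells of a type and less RNA per cell cannot be told apart, and the part of the glial markers in the changes of the polyamine genes was not tested.

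Counted over the HDAC2 comparison, 1 of the 7 genes was called higher (Sms) and 1 lower (Amd1) by the authors, from their deposited table. Over all 13569 genes tested 28.2% were called, 24.6% higher and 3.6% lower. After centring 0 were higher and 2 lower (Amd1 and Sat1), beside 17.8% of all genes called, 10.2% higher and 7.59% lower. The median centred log2 fold change of the 7 was -0.22, and that over all genes tested was -0.0044. Since the genes were picked from this comparison, nothing is read from these counts.

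In the Sp3 comparison 5 of the 7 were called lower (Odc1, Amd1, Srm, Sat1 and Oaz1) and 0 higher, by the authors' table as deposited. Over all 13619 genes tested 39.3% were called, 13.2% higher and 26.1% lower. After centring the same 5 genes were called lower, beside 37.8% of all genes called, 20.2% higher and 17.6% lower. The median of the 7 was -0.30, against -0.0017 over all genes tested. Here too the choice of genes used the comparison, so the counts are descriptive.

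**Figure D3:**
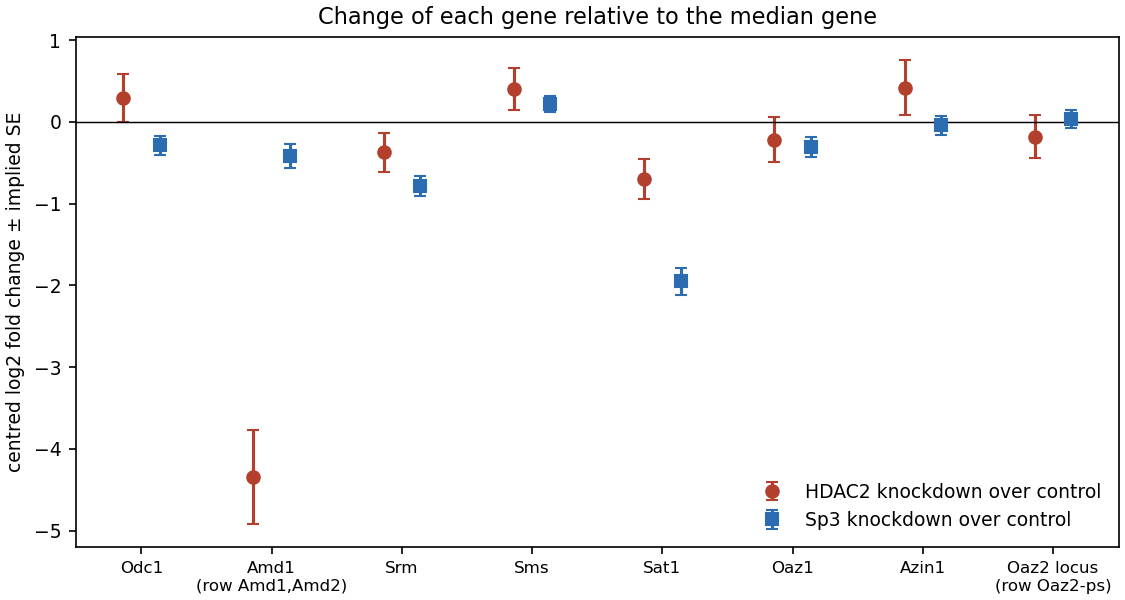
Centred log2 fold change, knockdown over control, for each gene in HDAC2 and Sp3 knockdown, with bars for the SE that follows from the authors' test statistic. Amd1 in HDAC2 knockdown (-4.34) and Sat1 in Sp3 knockdown (-1.95) lie farthest from 0, the median gene.

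The 2 knockdowns share the control libraries, so their changes were compared through the difference of centred changes, HDAC2 minus Sp3. The difference was called for 2 of the 7 genes, while 14.7% of 13277 genes tested were called. It was lower for Amd1 (-3.92 ± 0.59, SE) and higher for Sat1 (1.24 ± 0.29, SE). The Amd1 value is that of the "Amd1,Amd2" entry alone. Summed with the Amd2 entry, the locus had centred changes of -0.21 in HDAC2 knockdown and -0.08 in Sp3 knockdown, and their difference was not tested. Odc1 (0.58 ± 0.32), Azin1 (0.46 ± 0.36) and Srm (0.42 ± 0.26) had positive differences that were not called, with their SE. Those of Sms (0.19 ± 0.28) and Oaz1 (0.09 ± 0.30) lay within their SE of 0.

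**Figure D4:**
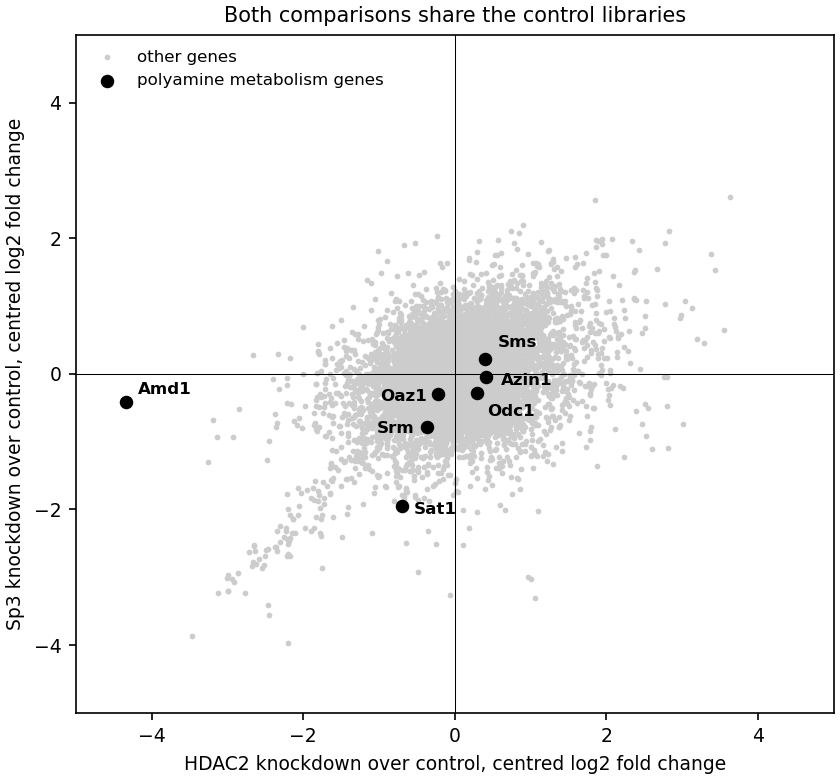
Centred log2 fold change in HDAC2 knockdown (x axis) and Sp3 knockdown (y axis), both over the shared control, for 13187 genes in grey and the 7 polyamine genes in black; 4 genes lie outside the axes. Amd1, drawn by its "Amd1,Amd2" entry alone, lies at the far left and Sat1 below most genes, while the other 5 lie within the main cloud.

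By distance over this pair of changes, among 11850 genes that had more than 0 FPKM in all 3 groups and clone names left aside, the genes nearest to Amd1 were Npas4 (1.18), Fosb (1.40), Arc (1.51), Mir1193 (1.82) and Egr2 (1.97), each distance in log2 units. Npas4, Fosb, Arc and Egr2 are genes that neuronal activity induces. None of the 5 is close, and Mir1193 had an SE of 2.23 in HDAC2 knockdown. Npas4 had a centred change of -3.19 in HDAC2 knockdown and -0.68 in Sp3 knockdown, against -4.34 and -0.42 for Amd1. These distances use the "Amd1,Amd2" entry alone. Summed with the Amd2 entry, the locus had centred changes of -0.21 in HDAC2 knockdown and -0.08 in Sp3 knockdown. The genes nearest to Odc1, Dennd1b, Nek10, Ybx1, Ptma and Mfsd1, lay within 0.0188 log2 units of it.

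Promoter windows from RefSeq (GRCm38.p6, 250 bases before to 50 after the start) were found for 6 of the 8 genes; Srm and Azin1 are not among them. Sp3 binds GC boxes, so the core GGGCGG was searched on both strands, where it appears as CCGCCC. It occurs in 35.7% of 32851 windows. The windows of Sat1 and Odc1 are printed because Sat1 had the largest fall in Sp3 knockdown and Odc1 is the first enzyme of the pathway, and those of Amd1 and Amd2 because their entries share coordinates. Capitals mark the core, and each window is written on the gene's own strand.
Sat1 (chrX:155216400-155216699, minus strand): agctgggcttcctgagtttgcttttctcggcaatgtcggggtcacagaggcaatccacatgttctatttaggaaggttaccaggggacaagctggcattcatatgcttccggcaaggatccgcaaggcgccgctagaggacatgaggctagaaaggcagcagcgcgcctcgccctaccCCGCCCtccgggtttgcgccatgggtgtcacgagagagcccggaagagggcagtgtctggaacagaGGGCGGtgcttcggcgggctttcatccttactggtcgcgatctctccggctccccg
Odc1 (chr12:17544623-17544922, plus strand): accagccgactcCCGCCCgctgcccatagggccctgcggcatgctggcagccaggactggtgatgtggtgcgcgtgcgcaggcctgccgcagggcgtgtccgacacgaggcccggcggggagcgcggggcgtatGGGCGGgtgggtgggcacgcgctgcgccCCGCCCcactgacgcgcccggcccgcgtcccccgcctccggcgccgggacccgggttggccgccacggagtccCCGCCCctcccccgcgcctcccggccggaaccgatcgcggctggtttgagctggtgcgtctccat
Amd1 (chr10:40302139-40302438, minus strand): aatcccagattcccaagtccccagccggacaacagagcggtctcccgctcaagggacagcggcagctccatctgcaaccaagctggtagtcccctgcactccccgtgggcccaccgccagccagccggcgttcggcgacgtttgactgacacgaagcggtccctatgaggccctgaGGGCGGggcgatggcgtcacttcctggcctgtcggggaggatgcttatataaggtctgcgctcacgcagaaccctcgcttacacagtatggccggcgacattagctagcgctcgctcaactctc
Amd2 (chr10:35711842-35712141, minus strand): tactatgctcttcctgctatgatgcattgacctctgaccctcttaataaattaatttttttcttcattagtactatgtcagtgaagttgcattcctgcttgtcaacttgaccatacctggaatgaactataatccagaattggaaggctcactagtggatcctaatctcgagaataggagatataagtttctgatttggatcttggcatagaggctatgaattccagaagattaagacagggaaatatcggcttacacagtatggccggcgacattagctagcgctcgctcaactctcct
The core begins 72 and 6 bases before the start in Sat1, 238, 116, 88 and 15 bases before it in Odc1, and 74 bases before it in Amd1, and these letters are not in the Amd2 window. Oaz2 has 4 matches, of which the last 2 overlap, a second Sms window has 4, of which 3 overlap, and Oaz1 has none. The windows are rich in G and C at 78% for Odc1, 63% for Amd1 and 60.3% for Sat1, against a median of 52.7% over all windows and 40.7% for Amd2. A match is a description of the window and does not show that Sp3 binds there. Amd1 and Amd2 share an unbroken run of 48 bases just after their starts. TATAAA, sought on both strands with 13.6% of windows holding it, occurs in the Oaz1 window, and CACGTG, held by 7.15%, in the other Sms window.

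The rest of the pathway was described by lists of 45 other genes. In HDAC2 knockdown 11 of 35 tested genes were called higher and 0 lower by the authors' table as deposited, and after centring 5 were higher and 3 lower, with a median centred change of 0.01. In Sp3 knockdown 3 of 36 were called higher and 15 lower, and after centring 3 and 9, with a median of -0.13. Over all genes tested, 24.6% were called higher and 3.6% lower in HDAC2 knockdown by the authors' deposited table. In Sp3 knockdown the deposited shares were 13.2% higher and 26.1% lower. After centring they were 10.2% higher and 7.59% lower in HDAC2 knockdown, and 20.2% higher and 17.6% lower in Sp3 knockdown. No list was tested as a whole.

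**Figure D5:**
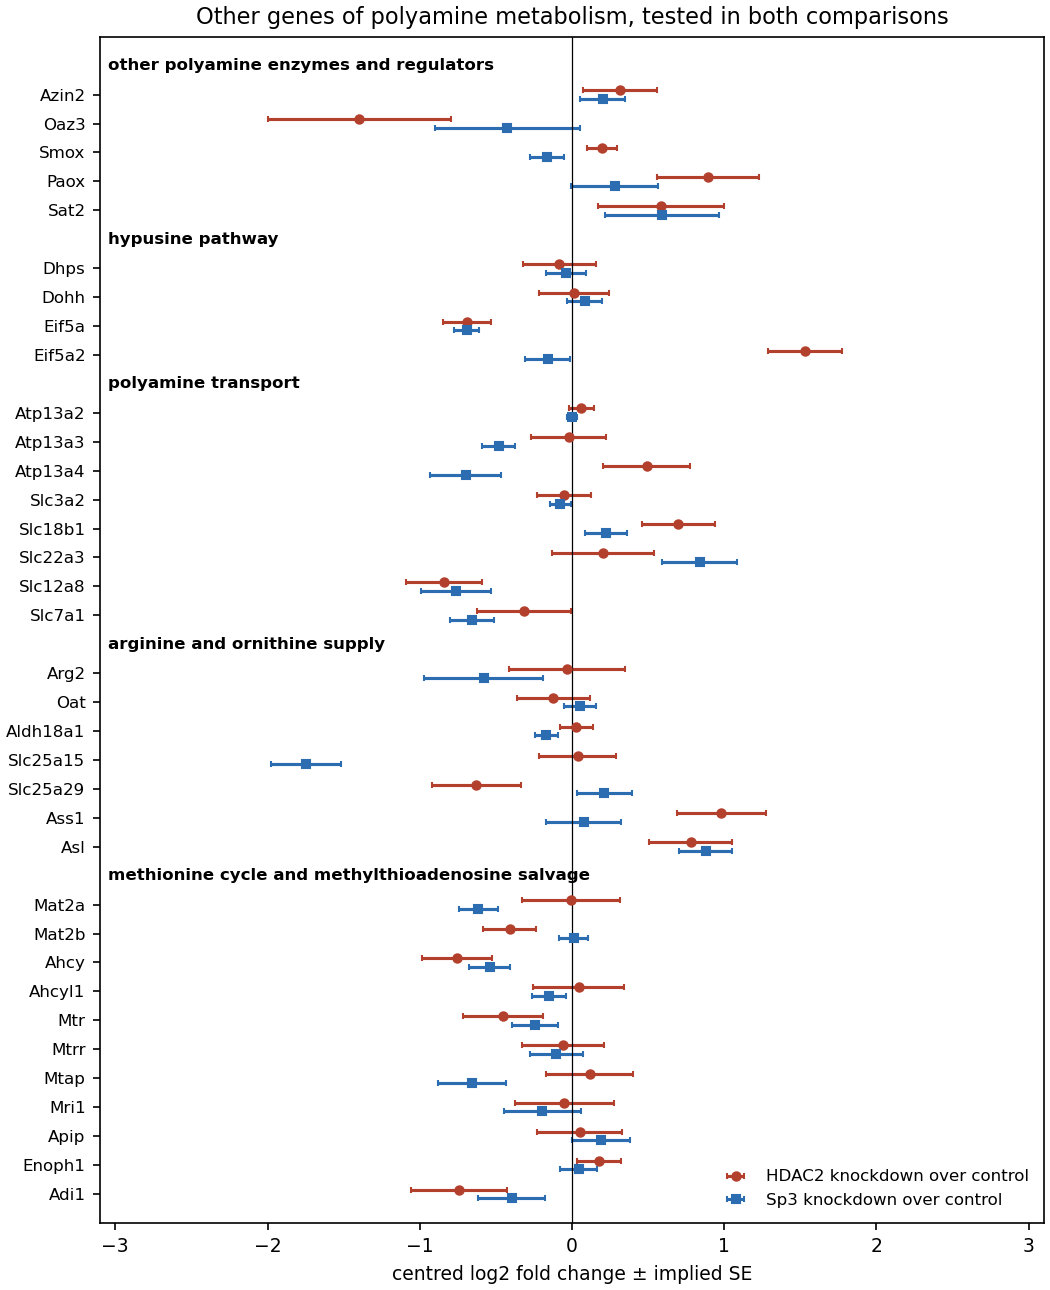
Centred log2 fold change with its SE for 35 other genes of polyamine metabolism that were tested in both comparisons, by list. HDAC2 knockdown is drawn above Sp3 knockdown within each gene, and Eif5a2 in HDAC2 knockdown (1.53) and Slc25a15 in Sp3 knockdown (-1.75) lie farthest from 0.

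Among other polyamine enzymes and regulators, Smox, Paox and Azin2 were called higher in HDAC2 knockdown as deposited, and Paox alone after centring. Of 5 tested, the authors' deposited table called 3 higher and 0 lower there. In Sp3 knockdown 0 were called higher and 1 lower as deposited, and 0 were called after centring. The deposited shares over all genes were 24.6% higher and 3.6% lower in HDAC2 knockdown, and 13.2% higher and 26.1% lower in Sp3 knockdown. After centring they were 10.2% higher and 7.59% lower in HDAC2 knockdown, and 20.2% higher and 17.6% lower in Sp3 knockdown. Paox, which oxidises acetylated polyamines, stood at 4.77 FPKM in HDAC2 knockdown, 2.28 in Sp3 knockdown and 2.06 in control in the authors' deposited tables, with a centred change of 0.89 ± 0.33 (SE) in HDAC2 knockdown. Smox, the spermine oxidase, stood at 31.9 FPKM in HDAC2 knockdown, 18.2 in Sp3 knockdown and 22.3 in control in the authors' deposited tables; its centred changes of 0.20 ± 0.10 and -0.16 ± 0.11 (SE) were not called, although both deposited ones were. Azin2, listed under Adc, was called higher in HDAC2 knockdown with a q of 0.0349 in the authors' deposited table, and not after centring.

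Hypusine, a modified lysine made from spermidine, is carried by Eif5a and Eif5a2, translation factors. Eif5a2 stood at 16.1 FPKM in HDAC2 knockdown, 3.66 in Sp3 knockdown and 4.48 in control in the authors' deposited tables. It rose in HDAC2 knockdown by a centred 1.53 ± 0.24 (SE), with a q of 7.75e-13 in the authors' deposited table. Eif5a, the far more abundant one, stood at 119 FPKM in HDAC2 knockdown, 87.3 in Sp3 knockdown and 155 in control in those authors' deposited tables. It fell in Sp3 knockdown (centred -0.69 ± 0.08, SE, q listed as 0 in the authors' deposited table), and in HDAC2 knockdown it was called lower only after centring (-0.69 ± 0.16, SE, deposited q 0.0587 in the authors' table). The modifying enzymes Dhps and Dohh were called in neither comparison.

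Of 8 tested transport genes, the authors' deposited table for Sp3 knockdown called 6 lower and 1 higher, and that for HDAC2 knockdown 3 higher and 0 lower. After centring, 4 were lower and 1 higher in Sp3 knockdown, and 1 was higher and 1 lower in HDAC2 knockdown. Over all genes tested, 26.1% were called lower in Sp3 knockdown as deposited and 17.6% after centring. The shares called higher in HDAC2 knockdown were 24.6% and 10.2%. Those called lower in HDAC2 knockdown were 3.6% and 7.59%, and those called higher in Sp3 knockdown were 13.2% and 20.2%. Slc7a1, a carrier of cationic amino acids, stood at 14.8 FPKM in HDAC2 knockdown, 8.53 in Sp3 knockdown and 14.7 in control in the authors' deposited tables, with a centred change of -0.66 ± 0.14 (SE) in Sp3 knockdown. Atp13a3, a polyamine transporter, fell in Sp3 knockdown as well (centred -0.48 ± 0.11, SE). Slc22a3, an organic cation transporter, was the one called higher there (centred 0.84 ± 0.25, SE), and Slc18b1, a vesicular polyamine carrier listed under 1110021L09Rik, was called higher in HDAC2 knockdown (centred 0.70 ± 0.24, SE).

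Supply of ornithine and arginine was called in 3 of 7 tested genes, all higher, in HDAC2 knockdown and in 3 of 7 in Sp3 knockdown, 1 higher and 2 lower, by the authors' deposited tables. After centring, 2 were higher and 0 lower in HDAC2 knockdown, and 1 was higher and 1 lower in Sp3 knockdown. Among all genes, 24.6% were called higher in HDAC2 knockdown as deposited and 10.2% after centring. In Sp3 knockdown 13.2% were called higher and 26.1% lower as deposited, and 20.2% higher and 17.6% lower after centring. The shares called lower in HDAC2 knockdown were 3.6% as deposited and 7.59% after centring. Slc25a15, the mitochondrial ornithine carrier, stood at 6.25 FPKM in HDAC2 knockdown, 1.33 in Sp3 knockdown and 4.89 in control in the authors' deposited tables. It fell in Sp3 knockdown by a centred -1.75 ± 0.23 (SE), with a q of 1.26e-14 in the authors' deposited table. Asl, which releases arginine from argininosuccinate, rose in both knockdowns, by a centred 0.78 ± 0.27 (SE) in HDAC2 and 0.88 ± 0.17 (SE) in Sp3 knockdown. Ass1, the enzyme before it, rose in HDAC2 knockdown (centred 0.98 ± 0.29, SE).

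The methionine cycle feeds Amd1 with S-adenosylmethionine, and its list here also holds the genes of methylthioadenosine salvage. Of 12 tested genes of this list, 5 were called lower and 1 higher in the authors' deposited table for Sp3 knockdown. In that for HDAC2 knockdown 1 of 11, the salvage gene Enoph1, was called higher. After centring, 3 were lower and 1 higher in Sp3 knockdown, and in HDAC2 knockdown 0 were higher and 1, Ahcy, was lower. Of all genes tested, 26.1% were called lower in Sp3 knockdown as deposited and 17.6% after centring. The share called higher in HDAC2 knockdown was 24.6% as deposited and 10.2% after centring. In the same order, the shares called lower in HDAC2 knockdown were 3.6% and 7.59%, and those called higher in Sp3 knockdown 13.2% and 20.2%. Mat2a, which makes S-adenosylmethionine, stood at 79.4 FPKM in HDAC2 knockdown, 38.1 in Sp3 knockdown and 64.0 in control in the authors' deposited tables and fell in Sp3 knockdown (centred -0.61 ± 0.13, SE). Mtap, which recycles the methylthioadenosine left by Srm and Sms, fell there by a centred -0.66 ± 0.22 (SE). Ahcyl2 was called higher in Sp3 knockdown (centred 1.00 ± 0.07, SE) and was not tested in HDAC2 knockdown.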

How the data were processed

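RNA was sequenced from 6 libraries, 2 per group, built with a TruSeq kit according to the labels' protocols. The build mm9 and the tools Bowtie, TopHat and Cuffdiff appear in the submitters' processing notes. Versions, annotation, strand setting and the treatment of multiply mapped reads: not given in the sources used here. Per the file headers, each deposited table gives the authors' FPKM for control and 1 knockdown, pooled over the libraries of a group, with the log2 fold, the statistic of the test and its p-value and q-value. The statistic, deposited by the authors as a score, has the sign opposite to the fold in 100% of genes tested, and the p of a normal deviate of that size differed from the authors' deposited p-value by at most 2.72e-06. Control FPKM, deposited by the authors in both tables, is identical for 23235 genes (100%).

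The SE of a fold was computed as the log2 fold divided by the reversed statistic, and SEs above 5 were treated as missing. Folds were centred on the median gene of at least 1 FPKM, given a normal p and adjusted by the Benjamini-Hochberg method over all genes tested. The difference between knockdowns was divided by the root of the summed squared SEs, which counts the control's error in both terms. Groups come from the treatment labels. Python 3.11.15, numpy 2.4.6, pandas 2.3.3 and scipy 1.17.1 were used, and the steps were tested on simulated data. The simulated errors were drawn from these same SEs, so the simulation does not show whether the SEs are right. Depth per library is unknown, so precision rests on the SEs alone.

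The members, lists and alternatives were chosen with earlier results of these data known. The rule for named genes took all 8 members, up to 6 genes per pathway list with called ones first, the knockdown targets, and the 5 genes nearest to Amd1 and to Odc1. Alternatives changed the centring, q threshold, minimum fold, low-value filter, pseudocount and reference distribution. Promoter windows came from RefSeq GRCm38.p6 and transcripts from GENCODE; no coordinate was converted between builds.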

Additional observations from a re-analysis of the deposited data

How the results depend on the processing

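No paired analysis was possible because the deposited tables hold 1 value per group, and for the same reason leaving out a replicate could not be run. In HDAC2 knockdown the 3831 genes called became 2403 when centred on the median gene and 2406 when centred on the upper quartile. The members called there went from 2 to 1 at q under 0.01 and to 4 at q under 0.10. In Sp3 knockdown a minimum fold of 1.5 left 2505 of 5353 genes and 2 of 5 members. Without centring, the difference between knockdowns was called for 3815 genes in place of 1955 and for 5 members in place of 2. A t distribution with 2 degrees of freedom in place of the normal left 0 genes and 0 members called in each comparison after Benjamini-Hochberg adjustment. At an unadjusted p under 0.05 it left 1268 genes for HDAC2 (Amd1 among the members), 2281 for Sp3 (Srm and Sat1) and 615 for the difference (Amd1). Dividing by the median fold took the summed FPKM of the 7 members to 345 in HDAC2 knockdown and 282 in Sp3 knockdown. Centring took the median of the other pathway genes in HDAC2 knockdown from 0.33 to 0.013. Oaz1 in HDAC2 knockdown changed sign, to -0.22 under both centrings. Summing both entries at the Amd1 locus, an alternative chosen after seeing the data, turned the Amd1 change in HDAC2 knockdown to 0.10 and took that in Sp3 knockdown to -0.21.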
